A study of Mus musculus with 16 samples.

Results

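Hyaluronan and the proteoglycans that surround it were followed here through 10 genes in cells of mouse gonadal fat: the hyaluronan synthases Has1 and Has2, the hyaluronidases Hyal1 and Hyal2, the hyaluronan receptor Cd44, the large hyaluronan-binding proteoglycan versican (Vcan), the small leucine-rich proteoglycans decorin (Dcn), lumican (Lum) and biglycan (Bgn), and proteoglycan 4, or lubricin (Prg4). The members were chosen by gene name, and each name matched exactly 1 of the 54532 genes in the deposited tables. All 10 were present in both the count and the FPKM table (fragments scaled by gene length and by library total). Levels are compared between genes only in FPKM, which is scaled by gene length.

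The 16 libraries were bulk RNA sequencing of gonadal white adipose tissue from female C57BL/6 mice, although the series title speaks of single cells. Every library came from collagenase-digested fat, parted into a mature adipocyte and a stromal vascular fraction and then enriched by magnetic sorting. The groups were 4 control and 4 stressed libraries of preadipocytes on a high-fat diet, 3 control and 3 stressed libraries of mature adipocytes on a high-fat diet, and 1 control and 1 stressed library of preadipocytes on a low-fat diet. Stressed mice underwent maternal separation and early weaning: pups were taken from the dam daily on postnatal days 2 to 16 and weaned on day 17, while controls stayed with the dam until weaning on day 21. There were no low-fat mature adipocyte libraries among the samples, so cell fraction was compared on the high-fat diet only. The sources used here name neither the sort antibodies nor the age at collection or the time on the diet. Nothing in the labels says whether libraries of a group came from different mice, so every p-value measures the spread between these libraries, which may be technical.

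Hyaluronan is a long unsulfated sugar chain that synthases at the plasma membrane build from UDP-glucuronic acid and UDP-N-acetylglucosamine and extrude into the matrix. Hyaluronidases cut it, cells bind it through CD44, and versican tethers to it through a link domain. Decorin, lumican and biglycan bind collagen fibrils and shape their assembly, and lubricin is a mucin-like glycoprotein best known for lubricating joint surfaces. In adipose tissue, fibroblast-like progenitors are a main source of this matrix, and CD44 is also abundant on leukocytes.

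Library totals ran from 14182130 to 23368821 counts. Among the control high-fat preadipocytes, libraries 1 and 3 hardly differed, with a biological coefficient of variation of 0.0427 against 0.204 to 0.557 for the other 17 pairs within groups. They were therefore summed into 1 library for every test and averaged into 1 value for every mean, which leaves n = 3 for that group. The labels of the fractions were matched by their marker genes: the fat hormone gene Adipoq was at 914 to 5044 FPKM in mature adipocytes and 0.788 to 34.4 FPKM in high-fat preadipocytes, and the progenitor receptor gene Pdgfra was at 0.985 to 3.98 and 36.9 to 81.7 FPKM, respectively. Markers of other cells were present in both fractions. The summed level of 12 macrophage markers was 1574 to 8884 CPM (counts scaled to the library total) in high-fat preadipocytes, 1487 and 1824 CPM in the low-fat control and stressed preadipocytes, and 1857 to 8211 CPM in mature adipocytes, and every one of the 12 was detected in every library. Mature adipocyte markers, 10 genes, summed to 86.0 to 627 CPM in high-fat preadipocytes and 16801 to 62706 CPM in mature adipocytes. Control mature adipocyte libraries 1 and 3 also held few rare transcripts: their genes with 1 to 5 counts were 1.15 and 0.637 times as many as those with 6 to 15 counts, against 1.55 to 2.21 times in the other 4. Library 3 also had the lowest total count, and library 1, with 18091 genes detected, was close to stressed library 2 with 18400.

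The promoter table, from RefSeq on build GRCm38.p6, held 6 of the 10 members (Has1, Hyal1, Hyal2, Cd44, Vcan and Bgn). Of these 6, sequences are shown for the 3 whose fractions did not overlap, Has1, Vcan and Bgn, all lower in mature adipocytes, and for Hyal2, which was higher there. Has2, Dcn, Lum and Prg4 are named only. Each runs 5′ to 3′ from 250 bases before to 50 bases after the start site, and capitals mark matches to the motifs searched on both strands. Has1 lies at chr17:17855139-17855438 on the minus strand, Vcan at chr13:89742463-89742762 on the minus strand, Bgn at chrX:73483351-73483650 on the plus strand and Hyal2 at chr9:107568913-107569212 on the plus strand. The Hyal2 start site lies 1218 bases inside the bounds of its deposited gene, so all 300 bases shown fall within that gene.
Has1: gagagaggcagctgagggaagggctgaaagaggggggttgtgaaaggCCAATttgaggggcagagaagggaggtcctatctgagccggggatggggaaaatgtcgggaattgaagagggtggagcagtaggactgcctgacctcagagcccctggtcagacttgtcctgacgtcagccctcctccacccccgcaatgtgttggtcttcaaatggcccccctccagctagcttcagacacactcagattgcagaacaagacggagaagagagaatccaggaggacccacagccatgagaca
Vcan: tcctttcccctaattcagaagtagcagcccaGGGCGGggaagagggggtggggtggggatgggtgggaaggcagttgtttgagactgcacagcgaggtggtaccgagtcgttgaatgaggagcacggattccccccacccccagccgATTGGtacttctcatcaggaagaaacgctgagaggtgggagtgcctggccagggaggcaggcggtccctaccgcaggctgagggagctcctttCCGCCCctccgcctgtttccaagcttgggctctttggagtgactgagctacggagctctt
Bgn: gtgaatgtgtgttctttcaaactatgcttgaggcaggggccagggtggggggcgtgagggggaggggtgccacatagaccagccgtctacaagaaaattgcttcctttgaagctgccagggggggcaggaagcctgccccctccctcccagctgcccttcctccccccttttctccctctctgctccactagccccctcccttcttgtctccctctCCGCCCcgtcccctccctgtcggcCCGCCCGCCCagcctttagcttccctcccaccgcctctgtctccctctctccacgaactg
Hyal2: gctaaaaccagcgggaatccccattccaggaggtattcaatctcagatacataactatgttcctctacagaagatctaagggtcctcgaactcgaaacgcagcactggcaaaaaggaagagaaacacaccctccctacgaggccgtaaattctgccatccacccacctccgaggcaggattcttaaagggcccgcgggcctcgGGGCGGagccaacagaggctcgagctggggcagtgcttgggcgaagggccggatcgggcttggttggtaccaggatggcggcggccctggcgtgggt
The GC box GGGCGG, which 35.7% of all 32851 promoters in the table hold, had 3 matches in Bgn, at -34, -10 and -6 from the start site, with the last pair of matches overlapping. It had 2 matches in Vcan, at -219 and -10, and 1 in Hyal2, at -47. The CCAAT box, held by 37.4% of promoters, matched at -203 in Has1 and at -103 in Vcan. No AP-1 motif TGANTCA (7.81% of promoters), TATAAA (13.6%) or E-box CACGTG (7.15%) was found in these 300 bases of any of the 6 members. These are letter matches and were not tied to any difference in expression.

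The 10 genes are protein-coding, and the deposited tables place them on build GRCm38. Has1 lies at chr17:17843323-17855205 (minus strand), Has2 at chr15:56665627-56694539 (minus strand), Hyal2 at chr9:107567945-107572779 (plus strand) and Hyal1 at chr9:107576927-107581710 (plus strand), 4148 bases further along. Cd44 lies at chr2:102811141-102901665 (minus strand), Vcan at chr13:89655312-89742509 (minus strand) and Prg4 at chr1:150449412-150466165 (minus strand). Dcn lies at chr10:97479609-97518143, Lum at chr10:97565128-97572703 and Bgn at chrX:73483602-73495933, all on the plus strand. Has2 shares 4596 bases with the antisense gene Has2os, which held 1451 counts over all libraries against 64599 for Has2.

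In high-fat preadipocytes the 10 genes spanned more than 2 orders of magnitude. The order of their median levels ran from Dcn (961 FPKM) through Lum (674), Bgn (278), Has1 (165), Has2 (55.6), Cd44 (39.2), Vcan (25.7), Prg4 (14.7) and Hyal2 (6.68) to Hyal1 (2.37). Within libraries, 6 of the 9 neighbouring pairs in this order kept it in 7 of 7 libraries. Has2 exceeded Cd44 in 5 of 7, Vcan exceeded Prg4 in 6 of 7 and Prg4 exceeded Hyal2 in 6 of 7. Differences in level between genes were not tested. Dcn was among the most abundant transcripts of these cells, ranking 7 to 47 of 22046 protein-coding genes over the high-fat preadipocyte libraries. In mature adipocytes its rank was 611 to 1538. There the order was Dcn (45.9 FPKM), Bgn (40.03), Lum (25.6), Cd44 (17.1), Hyal2 (12.6), Has1 (4.74), Prg4 (4.74), Hyal1 (3.09), Vcan (0.866) and Has2 (0.658). No neighbouring pair there kept its order in 6 of 6 libraries, and Has1 against Prg4, Prg4 against Hyal1 and Vcan against Has2 were each in that order in 3 of 6.

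**Figure D1:**
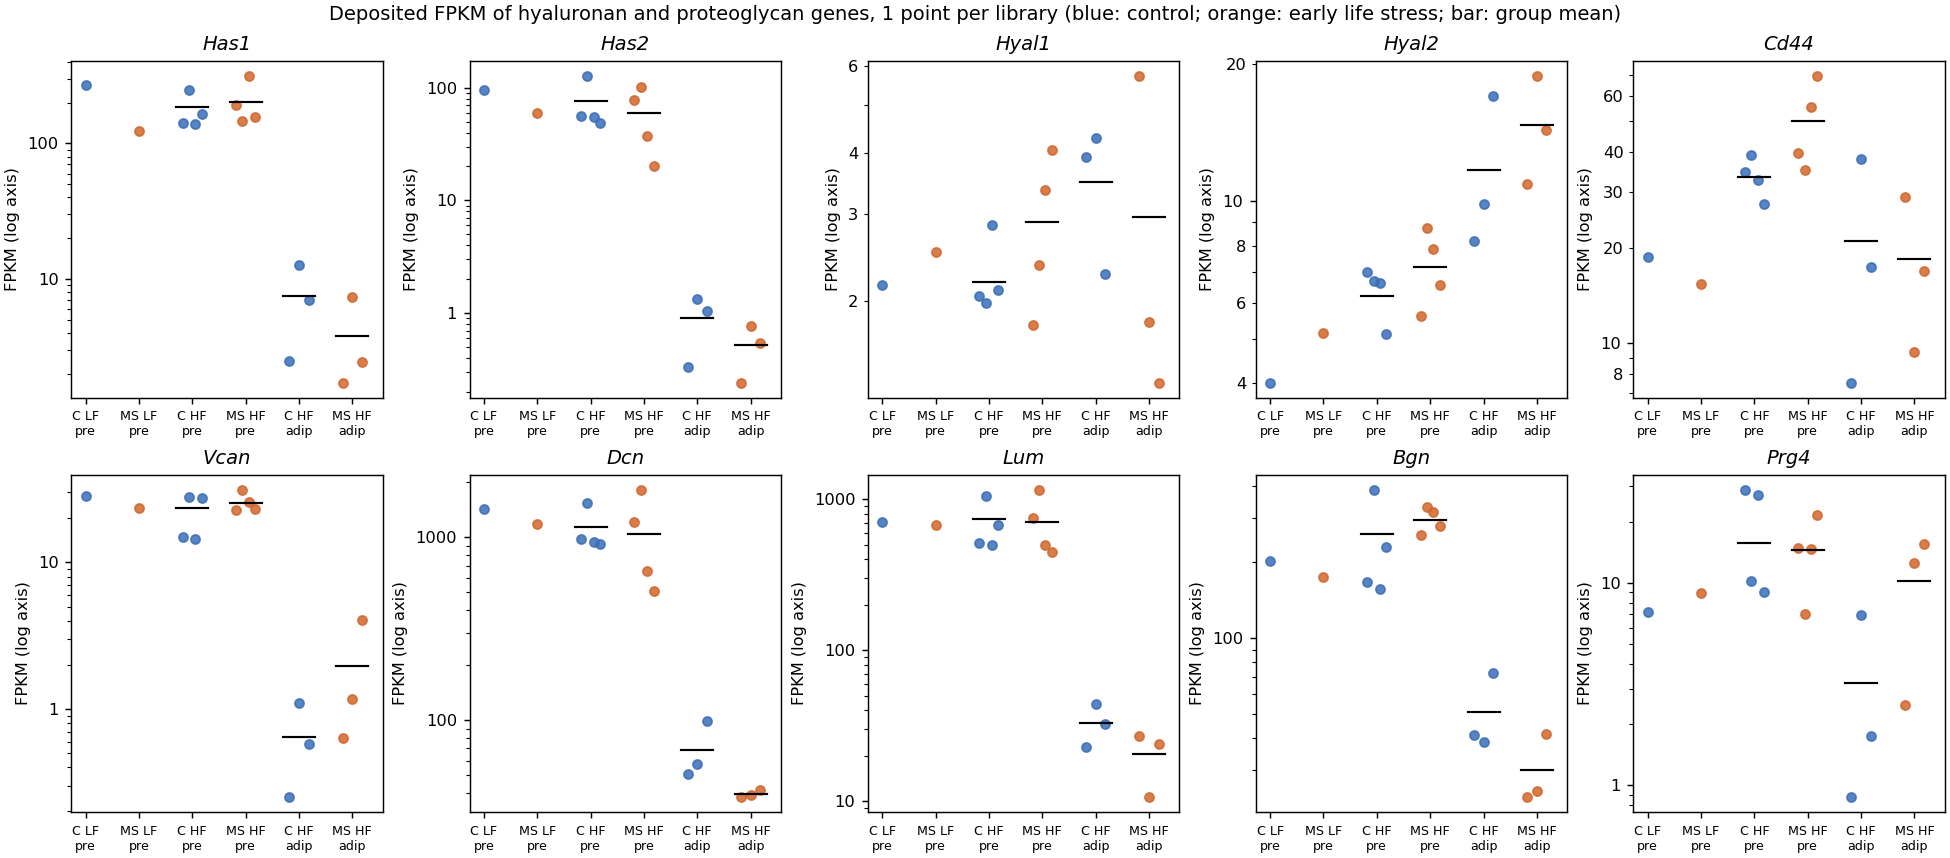
Deposited FPKM of the 10 genes in each of the 16 libraries, on a log axis (pre, preadipocytes; adip, mature adipocytes; LF and HF, low-fat and high-fat diet; C, control; MS, early life stress). Points are libraries, and black bars are group means with the near-identical pair averaged first. Has1, Has2, Vcan, Dcn, Lum and Bgn sit higher in every preadipocyte library than in any mature adipocyte library, whereas the fractions overlap for Hyal1, Hyal2, Cd44 and Prg4.

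The comparison of the cell fractions asked which of these genes differed between preadipocytes and mature adipocytes on the high-fat diet, with early life treatment as a covariate. Of the 10 members, 7 were lower in mature adipocytes (Has1, Has2, Cd44, Vcan, Dcn, Lum and Bgn), 1 was higher (Hyal2), and Hyal1 and Prg4 did not pass the test (edgeR quasi-likelihood test, Benjamini-Hochberg adjusted p under 0.05 over 17948 genes). The fractions differed at 59.8% of all genes tested, with 32.9% lower and 26.9% higher in mature adipocytes, so a call by itself was common. The median log2 fold change of the members was -3.51, and that of all genes was -0.22. Moving from TMM to median-ratio scaling shifted the median of all genes to -0.32, a shift that changed no direction among the members. In 6 members no mature adipocyte library reached the level of any preadipocyte library. Such a separation in that direction was seen in 21.9% of genes, and in either direction in 38% of genes. In the control libraries alone 6 members passed, where 36.8% of genes did, and in the stressed libraries alone 8 passed, where 49.7% of genes did. These are bulk samples, so fewer cells of a type and less RNA per cell cannot be told apart.

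The synthases showed the widest gap. Has2, the synthase tied to stromal and developing tissues, stood at 56.5, 126, 54.8 and 49.0 FPKM in control high-fat preadipocyte libraries 1 to 4 and at 78.1, 102, 37.2 and 20.3 FPKM in stressed libraries 1 to 4. In mature adipocytes it was 0.337, 1.33 and 1.04 FPKM in the control libraries and 0.243, 0.772 and 0.544 FPKM in the stressed ones. The lowest preadipocyte library thus lay far above the highest mature adipocyte library, where 23 to 112 counts in a library lie behind each value. The test put Has2 93.4-fold lower in the mature cells, a log2 fold change of -6.55 ± 0.53 (SE; adjusted p = 1.71e-07, edgeR). Has1, its paralogue, was at 141, 250.1, 140.0 and 165 FPKM in control and 193, 146, 313 and 158 FPKM in stressed preadipocytes. Mature adipocytes held 2.46, 12.8 and 7.03 FPKM in control and 1.72, 7.30 and 2.42 FPKM in stressed libraries. Again no library of one fraction reached the other. The difference was 34.9-fold (log2 fold change -5.13 ± 0.50; adjusted p = 8.51e-07, edgeR). Has3, the remaining synthase, was at 0.193 to 2.28 FPKM in preadipocytes and 0 to 0.195 FPKM in mature adipocytes.

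The hyaluronidases did not follow the synthases. Hyal2, a membrane-anchored hyaluronidase that cuts long chains, was at 7.02, 6.68, 6.63 and 5.13 FPKM in control and 5.61, 8.73, 7.86 and 6.57 FPKM in stressed preadipocytes. Its levels in mature adipocytes were 8.20, 9.86 and 17.0 FPKM in control and 10.9, 18.8 and 14.3 FPKM in stressed libraries. The groups touched only where stressed preadipocyte library 2 exceeded control mature adipocyte library 1. Hyal2 was higher by 2.08-fold in the mature cells, a log2 fold change of 1.06 ± 0.19 (adjusted p = 0.000283, edgeR). That call was lost in the control libraries alone (0.94, adjusted p = 0.0531, edgeR) and kept in the stressed libraries alone (1.19, adjusted p = 0.00369, edgeR). Hyal2 overlaps Gm9917 on the other strand, which held 3588 counts over all libraries. Whether the counting used strand is not given in the sources used here, so reads of that overlap cannot be told apart. Hyal1, the lysosomal hyaluronidase, ranged from 1.79 to 4.06 FPKM in high-fat preadipocytes, with a median of 2.37, and from 1.37 to 5.71 FPKM in mature adipocytes, with a median of 3.09. The ranges overlapped, and the log2 fold change of 0.45 had a 95% interval of -0.27 to 1.18 (adjusted p = 0.262, edgeR). Hyal1 overlaps Nat6 and Hyal3 on the same strand, and its 99 to 481 counts in a library depend on how shared reads were assigned.

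Cd44, the receptor, was at 34.7, 39.2, 32.6 and 27.6 FPKM in control and 39.9, 35.1, 55.6 and 69.3 FPKM in stressed high-fat preadipocytes. Mature adipocytes held 7.53, 38.0 and 17.3 FPKM in control and 28.9, 9.39 and 16.9 FPKM in stressed libraries. Control mature adipocyte library 2 and stressed library 1 reached the preadipocyte range and the other 4 did not. Cd44 was lower by 1.93-fold in the mature cells, a log2 fold change of -0.95 ± 0.37 (adjusted p = 0.0384, edgeR). The call did not hold without any 1 of control preadipocyte library 2, stressed preadipocyte libraries 3 and 4, control mature adipocyte libraries 1 and 3, or stressed mature adipocyte libraries 2 and 3, with adjusted p from 0.0594 to 0.0879 in edgeR. It was also lost in the control libraries alone (-0.61, adjusted p = 0.390, edgeR) and held in the stressed ones (-1.30, adjusted p = 0.0307, edgeR). Macrophage markers moved with Cd44 among mature adipocytes. Their sum was 2254, 8211 and 3725 CPM in control libraries 1 to 3 and 5359, 1857 and 3855 CPM in stressed libraries 1 to 3, so the 2 libraries with the most Cd44 were those with the highest sums. The part of macrophage RNA in the Cd44 values was not tested.

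Vcan, a chondroitin sulfate proteoglycan of loose matrix, was at 14.9, 28.1, 14.3 and 27.3 FPKM in control and 22.8, 31.0, 25.7 and 23.1 FPKM in stressed preadipocytes. In mature adipocytes it was 0.253, 1.09 and 0.576 FPKM in control and 0.639, 1.18 and 4.04 FPKM in stressed libraries. Stressed mature adipocyte library 3 was the highest of its fraction and still below every preadipocyte library. The difference was 19.2-fold (log2 fold change -4.26 ± 0.52; adjusted p = 6.96e-06, edgeR). In the fits by treatment it was 34.6-fold among control and 11.7-fold among stressed libraries, but the test of that difference gave a log2 value of 1.51 ± 0.82 (adjusted p = 0.934, edgeR).

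The small leucine-rich members fell together but not equally. Dcn, which binds collagen and growth factors, was at 980.0, 1542, 942 and 917 FPKM in control and 1207, 1799, 653 and 506 FPKM in stressed high-fat preadipocytes. It was 50.5, 57.8 and 99.0 FPKM in control and 38.2, 38.8 and 41.3 FPKM in stressed mature adipocytes. Dcn was lower by 19.9-fold in the mature cells, a log2 fold change of -4.32 ± 0.35 (adjusted p = 1.67e-07, edgeR). Lum, a keratan sulfate proteoglycan of fibrillar collagen, ranged from 450.2 to 1144 FPKM in high-fat preadipocytes (median 674) and from 10.7 to 43.8 FPKM in mature adipocytes (median 25.6). It was 26.0-fold lower (log2 fold change -4.70 ± 0.37; adjusted p = 1.33e-07, edgeR). Bgn ranged from 156 to 384 FPKM in high-fat preadipocytes (median 278) and from 23.5 to 72.8 FPKM in mature adipocytes (median 40.03). Its 6.74-fold difference was the smallest of the 6 members whose fractions did not overlap (log2 fold change -2.75 ± 0.28; adjusted p = 1.45e-06, edgeR). Dcn and Lum are neighbours on chromosome 10, with 46985 bases between them.

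Prg4 varied 17.7-fold among the mature adipocyte libraries. It stood at 28.6, 10.3, 27.3 and 9.02 FPKM in control and 14.8, 7.05, 14.7 and 21.6 FPKM in stressed preadipocytes, and at 0.880, 6.97 and 1.76 FPKM in control and 2.50, 12.6 and 15.6 FPKM in stressed mature adipocytes. The fractions overlapped through stressed mature adipocyte libraries 2 and 3. The log2 fold change of -1.20 (95% interval -2.42 to 0.01) missed the threshold (adjusted p = 0.0806, edgeR). It passed in 5 of 27 alternative fits. On all high-fat libraries it passed in DESeq2 (-1.32, adjusted p = 0.0254). So it did in limma on log2(FPKM + 1) (-1.33, adjusted p = 0.0224) and on log2(FPKM + 0.1) (-1.60, adjusted p = 0.0224). In edgeR it passed without stressed preadipocyte library 2 (adjusted p = 0.0483) and without stressed mature adipocyte library 3 (adjusted p = 0.0333). The near-identical libraries, which held the most Prg4, also had the highest sums of 11 mesothelial markers, 1430 and 1411 CPM. Stressed preadipocyte library 4, with 21.6 FPKM of Prg4, had the lowest sum of the preadipocytes, 140 CPM. The 3′ end of Prg4 overlaps that of Tpr on the other strand over 524 bases, and whether the counting used strand is not given in the sources used here, so reads of that overlap cannot be told apart.

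**Figure D2:**
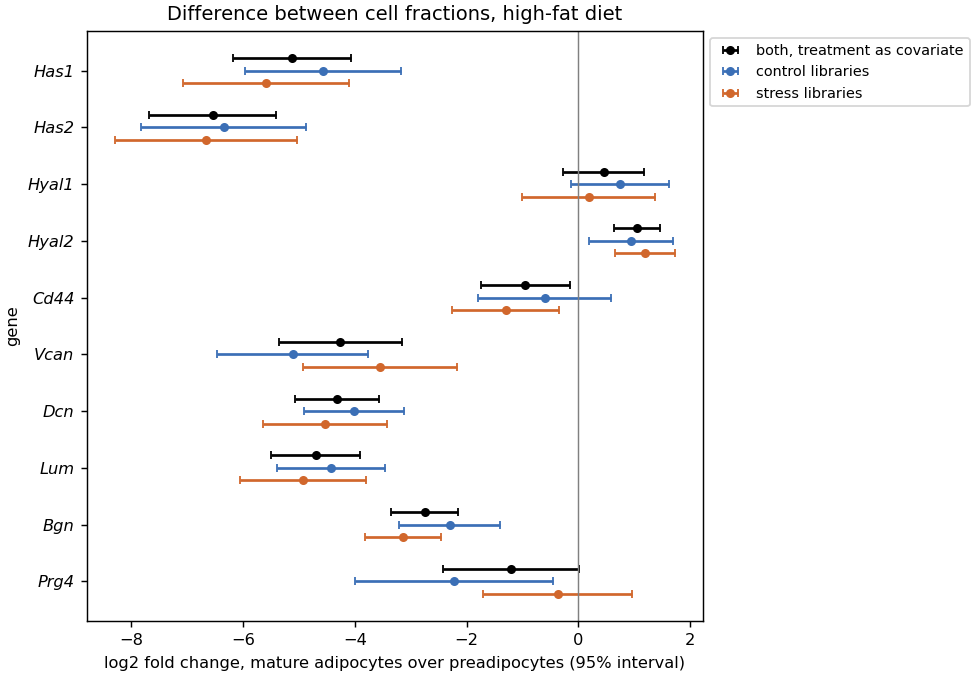
Log2 fold change of each gene in mature adipocytes over preadipocytes on the high-fat diet, from edgeR, with 95% intervals. Black points use all high-fat libraries with treatment as a covariate, blue points control libraries alone and orange points stressed libraries alone. Has2 is farthest to the left at -6.55, Hyal2 lies right of 0 at 1.06, and the intervals of the control and stressed fits overlap for every gene.

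The balance between members was also read as a ratio of FPKM within each library, which does not depend on library scaling. The pairs were chosen with the differences above in view, so the ratios restate them and are given as a description, with no test. Bgn over Dcn was 0.166 to 0.550 in high-fat preadipocytes and 0.616 to 1.01 in mature adipocytes, so the fractions did not overlap. The medians were 0.230, with the near-identical libraries counted separately, and 0.704. The mean log2 difference, with that pair counted as 1, was 1.44. Has1 over Has2 ranged from 1.43 to 8.40 in high-fat preadipocytes and from 4.45 to 9.62 in mature adipocytes, a mean log2 difference of 1.14. The mean log2 differences were -0.50 for Lum over Dcn and 0.72 for Hyal2 over Hyal1, with overlapping fractions. By diet, Bgn over Dcn was 0.141 and 0.149 in the low-fat preadipocyte libraries, below every high-fat one. That rests on 1 low-fat library of each treatment, and how often other gene pairs separate so was not counted.

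**Figure D3:**
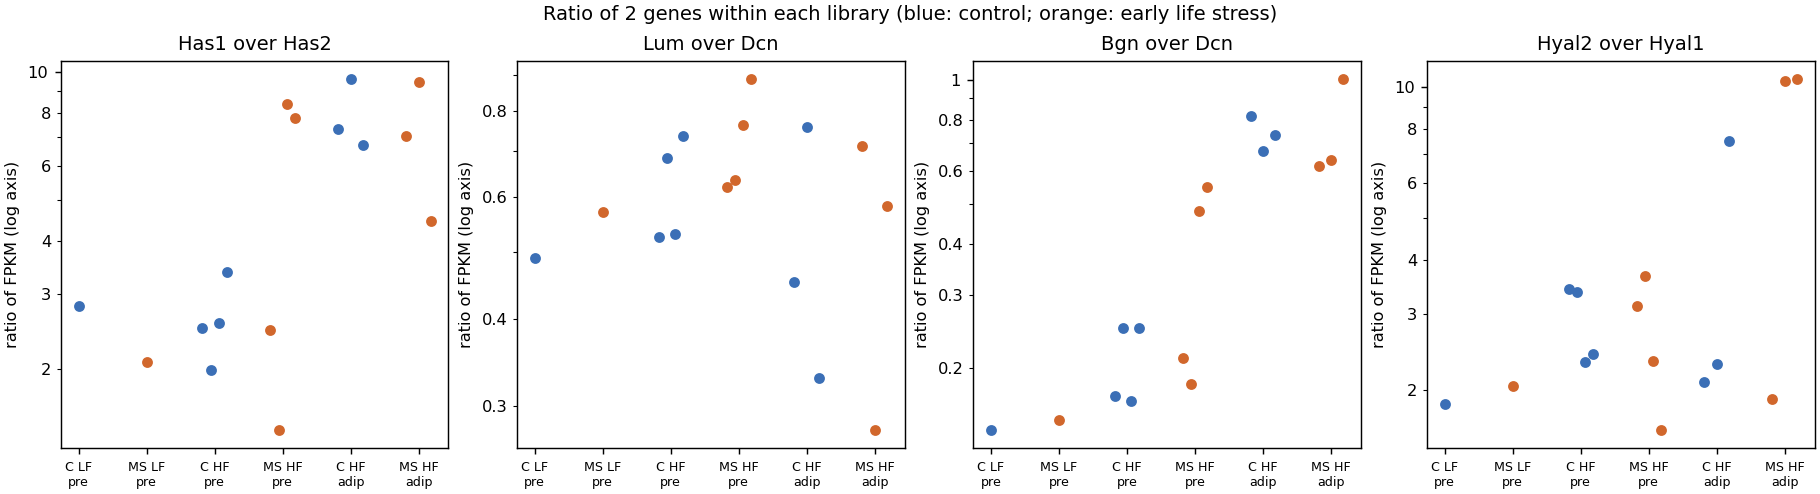
Ratio of the FPKM of 2 members within each library, on a log axis, for the 6 groups (blue, control; orange, early life stress; labels as in the plot of levels). Bgn over Dcn is 0.141 to 0.149 in low-fat preadipocytes, 0.166 to 0.550 in high-fat preadipocytes and 0.616 to 1.01 in mature adipocytes, while the ranges of the other 3 ratios overlap between the fractions.

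Genes that make, bind or trim the same matrix were read from 5 lists. Of 24 tested genes of hyaluronan turnover and binding, 11 were lower and 4 higher in mature adipocytes (edgeR), with a median log2 fold change of -0.74. Over all genes 32.9% were lower and 26.9% higher, so the share called in this list was near the 59.8% of all genes. Tnfaip6, which transfers heavy chains onto hyaluronan, fell by 4.42 on the log2 scale, from 304 to 974 FPKM in preadipocytes to 15.2 to 49.2 FPKM in mature adipocytes. Ugdh, which makes the UDP-glucuronic acid used by the synthases, fell by 3.38, and Layn, a hyaluronan receptor, fell by 2.62. Itih4, of the inter-alpha-trypsin inhibitor family, rose by 2.08. In the control libraries alone its log2 fold change was 2.98 (adjusted p = 0.0238, edgeR), and in the stressed libraries alone, where 0 genes of this list were higher, the rise did not pass (1.31, adjusted p = 0.0652, edgeR). Among 14 other small leucine-rich proteoglycans, 10 were lower and 1 higher, with a median of -2.48 (all genes: 32.9% lower, 26.9% higher). Ogn fell by 4.33, Ecm2 fell by 3.29 and Podn fell by 2.35. Prelp, also of this family, rose by 1.66, from 44.4 to 121 FPKM in preadipocytes to 72.9 to 628 FPKM in mature adipocytes. That rise passed in the control libraries alone (2.39, adjusted p = 0.00444, edgeR) and not in the stressed libraries alone (1.03, adjusted p = 0.140, edgeR). The test of whether the fraction difference was unlike in the treatments called neither Itih4 nor Prelp (edgeR).

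Of 6 tested proteases that cut versican and aggrecan, 5 were lower in mature adipocytes and 0 higher (edgeR), with a median of -2.39, where 32.9% of all genes were lower. In the control libraries alone, where 36.8% of all genes passed, 3 of the 6 did, and Adamts8 did not (-2.07, adjusted p = 0.203, edgeR). Adamts4 fell by 3.52, Adamts8 fell by 2.70, Adamts15 fell by 2.49 and Adamts1 fell by 2.29. Adamts8 was low throughout, at 0.120 to 0.996 FPKM in preadipocytes and 0 to 0.174 FPKM in mature adipocytes. Adamts1 was at 175 to 411 FPKM in preadipocytes. Of 38 genes that build, modify or trim glycosaminoglycan chains, 24 were lower and 5 higher, with a median of -0.79 (all genes: 32.9% lower, 26.9% higher). In the control libraries alone 11 were lower and 3 higher, a share called near the 36.8% of all genes in that fit. The sulfatase gene Sulf1 fell by 3.88, Dsel fell by 2.88 and the heparan sulfate polymerase gene Ext1 fell by 1.84, while Extl3 rose by 1.56. Among 19 tested heparan sulfate and other core proteins, 8 were lower and 4 higher, a share called near the 59.8% of all genes, with a median of -0.67. The glypicans moved in opposite directions: Gpc6 fell by 4.76 and Gpc3 fell by 4.56, while Gpc1 rose by 1.99. Spock2 fell by 3.66. With both treatments fitted together, all of these changes passed an adjusted p under 0.05 over all genes in edgeR, and the all-gene median was -0.22.

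Early life stress was compared with control within each fraction on the high-fat diet, the question named by the series title. In preadipocytes no member passed the test, none reached an unadjusted p under 0.05, and the control and stressed libraries overlapped for all 10. Across all genes 0% were called (0 of 17129, edgeR), 2.9% (496) had an unadjusted p under 0.05, 3.79% did not overlap, and DESeq2 called 5 genes, none of them a member. The nearest was Cd44, at 33.5 ± 5.82 FPKM in control (SD, n = 3) and 49.98 ± 15.6 FPKM in stressed libraries (n = 4). Its log2 fold change of 0.59 had a 95% interval of -0.08 to 1.27 (adjusted p = 0.973, edgeR). Stressed libraries 3 and 4 held the most Cd44 and also the highest macrophage sums, 7625 and 8884 CPM against 1574 to 4359 CPM in the other high-fat preadipocyte libraries. The part of macrophage RNA in this difference was not tested.

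For the other members in preadipocytes the intervals bound the difference. The log2 fold change was 0.14 for Has1 (95% interval -0.63 to 0.92), -0.40 for Has2 (-1.65 to 0.85), 0.42 for Hyal1 (-0.32 to 1.16) and 0.20 for Hyal2 (-0.24 to 0.65). It was 0.13 for Vcan (-0.40 to 0.67), -0.16 for Dcn (-1.15 to 0.83), -0.09 for Lum (-0.91 to 0.73), 0.19 for Bgn (-0.46 to 0.85) and -0.12 for Prg4 (-1.31 to 1.07). Relative to its mean, Has2 had the widest spread among stressed preadipocytes (59.3 ± 37.3 FPKM, SD, n = 4) and Bgn the narrowest (294 ± 33.6 FPKM). These intervals do not show that the groups were alike. Those of Has2 and Dcn include a 2-fold lower level in stressed libraries, and those of Hyal1 and Cd44 a 2-fold higher one. That of Prg4 includes a 2-fold difference in either direction.

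In mature adipocytes again no member passed. Across all genes 0% were called (0 of 14485, edgeR), 2.88% (417) had an unadjusted p under 0.05, and DESeq2 called 19 genes, none a member. Dcn was the member whose groups did not overlap in deposited FPKM, at 50.5, 57.8 and 99.0 in control and 38.2, 38.8 and 41.3 in stressed libraries. Those FPKM carry 1 scaling factor for each library, 1.26 in control library 1 and 0.906 in stressed library 3. With the factor divided out, stressed library 3 exceeds control library 1, so the separation rests on the deposited scaling. Such a separation with the stressed group lower was seen in 3.48% of genes, and in either direction in 6.7%. The log2 fold change of Dcn was -0.77 (95% interval -1.55 to 0.01; adjusted p = 0.9996, edgeR), and -0.44 without control library 3. Vcan was the member with an unadjusted p under 0.05 (0.0481), at 0.640 ± 0.424 FPKM in control and 1.95 ± 1.83 FPKM in stressed libraries (SD, n = 3 each), with an adjusted p of 0.9996 in edgeR. Its log2 fold change was 1.62 (95% interval 0.02 to 3.22), and it was 0.48 without stressed library 3. Prg4 had a log2 fold change of 1.63 (-0.14 to 3.41), at 3.20 ± 3.29 and 10.2 ± 6.85 FPKM.

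The remaining members in mature adipocytes had log2 fold changes of -1.01 for Has1 (95% interval -2.44 to 0.43), -0.81 for Has2 (-2.39 to 0.76), -0.72 for Bgn (-1.57 to 0.14) and -0.64 for Lum (-1.60 to 0.33). Those of Hyal1 (-0.18, -1.45 to 1.09), Cd44 (-0.16, -1.51 to 1.18) and Hyal2 (0.35, -0.45 to 1.15) lay closer to 0. The 2 control libraries with few rare transcripts, 1 and 3, held 0.880 and 1.76 FPKM of Prg4 and 0.253 and 0.576 FPKM of Vcan, each below every stressed library. Without these 2 libraries the log2 fold change was 0.80 for Vcan and 0.48 for Prg4, with 1 control library assumed to vary like the stressed ones. The test of whether the stress difference was unlike in the fractions called 0% of genes (0 of 17948, edgeR; 873, 4.86%, at an unadjusted p under 0.05; 2 in DESeq2) and no member. Prg4 had the largest value, 1.80 (95% interval -0.41 to 4.002; adjusted p = 0.934, edgeR). None of the 5 lists had a called gene in any of these comparisons (edgeR).

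**Figure D4:**
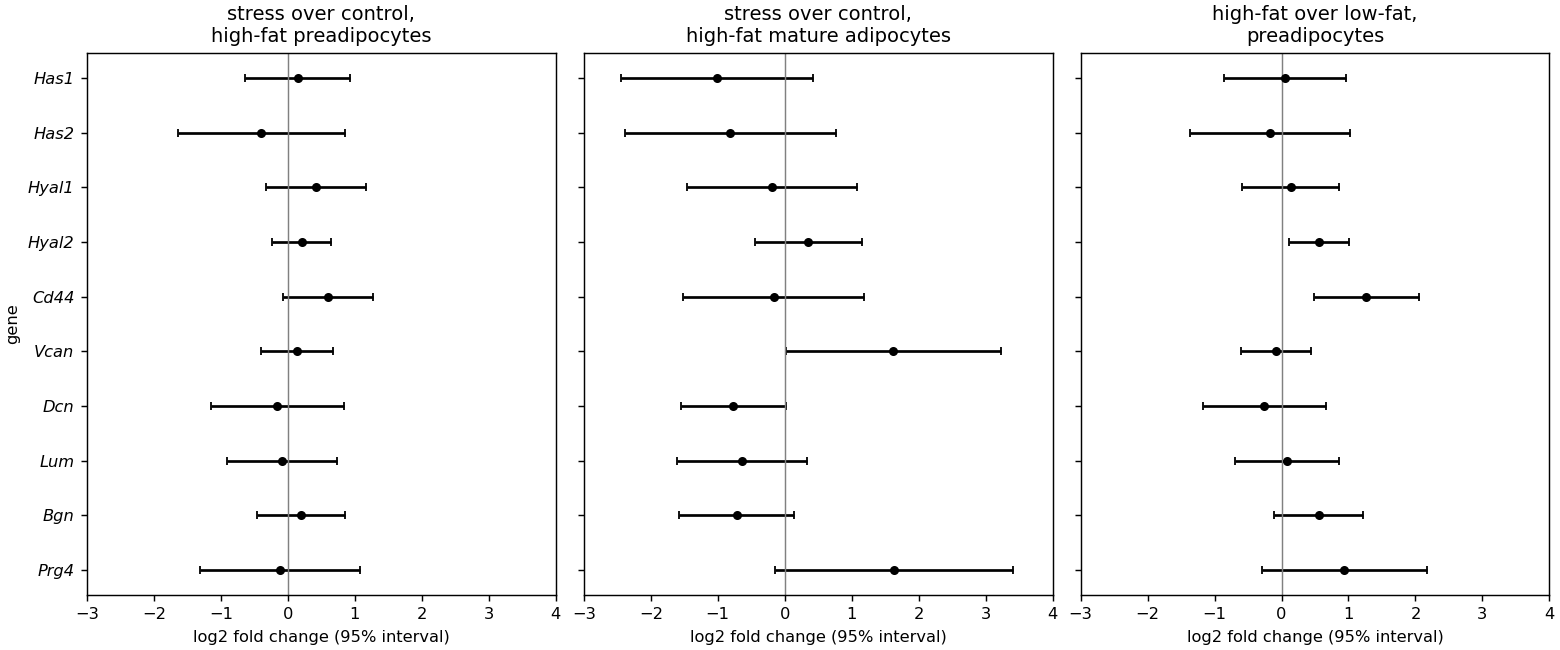
Log2 fold change of each gene with its 95% interval (edgeR), for stress over control in high-fat preadipocytes (left) and high-fat mature adipocytes (middle) and for high-fat over low-fat diet in preadipocytes (right). In the left panel every interval includes 0. Intervals exclude 0 for Vcan in the middle panel (0.02 to 3.22) and for Cd44 (0.48 to 2.06) and Hyal2 (0.12 to 1.01) in the right panel, none with an adjusted p under 0.05.

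Diet was compared in preadipocytes with treatment as a covariate, on the 2 low-fat libraries, 1 of each treatment. No member passed in edgeR. Across all genes 0% were called (0 of 19998), 12.3% (2456) had an unadjusted p under 0.05, and DESeq2 called 325 genes. Cd44 was at 18.7 and 15.4 FPKM in the low-fat control and stressed libraries and at 27.6 to 69.3 FPKM in the high-fat libraries (median 39.2), the only member whose diets did not overlap. A separation with the high-fat libraries higher was seen in 7.07% of genes, and one in either direction in 16%. The log2 fold change of Cd44 was 1.27 ± 0.35 (unadjusted p = 0.00536, adjusted p = 0.332 in edgeR), and DESeq2 called it (1.28, adjusted p = 0.0205). Over the alternatives its adjusted p ran from 0.0205 to 0.995. The macrophage sums of the low-fat control and stressed libraries were 1487 and 1824 CPM, against 1574 to 8884 CPM in the high-fat ones. High-fat control library 2 (1586 CPM) and stressed library 2 (1574 CPM) held 39.2 and 35.1 FPKM of Cd44. Stressed high-fat library 4 had the highest sum, 8884 CPM, and the most Cd44, 69.3 FPKM. The part of macrophage RNA in the Cd44 difference by diet was not tested.

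Hyal2 had a log2 difference of 0.56 ± 0.20 by diet (unadjusted p = 0.0188, adjusted p = 0.353, edgeR), at 4.02 and 5.15 FPKM in the low-fat libraries and 5.13 to 8.73 FPKM in the high-fat ones. The ranges touched at their ends. Bgn (0.56, 95% interval -0.11 to 1.22) and Prg4 (0.94, -0.30 to 2.17) were at the higher end in the high-fat fit, and Dcn (-0.26, -1.18 to 0.66) at the lower. The values of Has1 (0.05), Has2 (-0.17), Hyal1 (0.13), Vcan (-0.08) and Lum (0.08) were small beside standard errors of 0.23 to 0.53.

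Within the low-fat diet there was 1 library of each treatment and no replicate check. Has1 was at 269 FPKM in the control and 123 FPKM in the stressed library, a log2 ratio of -1.21. That was the member farthest from 0 and past the 2-fold difference that 2.41% of 9480 genes showed between these libraries. Has2 was at 95.9 and 59.2 FPKM (-0.77). The other 7 members above the level minimum had log2 ratios between -0.36 (Dcn) and 0.29 (Hyal2), inside the range of -0.55 to 0.44 that held the middle 90% of genes. The control value of Has1 lay inside the span of the high-fat preadipocytes, 140.0 to 313 FPKM, and the stressed value lay below it. Hyal1, with 197 and 198 counts, was under the minimum of 10 CPM for this ratio.

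Across the 9 preadipocyte libraries, counting the near-identical pair as 1, the members did not vary as a single block. Has2 and Dcn moved together (Pearson r = 0.969, Spearman rho = 0.983, n = 9), as did Dcn and Lum (r = 0.898) and Has2 and Lum (r = 0.872), while Has1 and Has2 did not (r = 0.175). Vcan and Prg4 ran in opposite directions (r = -0.873), as did Has2 and Hyal1 (r = -0.858). Of 11115 genes compared, the one most like Has2 was Ugdh (r = 0.994, rho = 0.967), followed by Ccnd2 (0.984) and Cpq (0.978). In FPKM, Ugdh was 148 and 110 in the low-fat control and stressed libraries, 109, 165, 106 and 102 in control high-fat libraries 1 to 4, and 139, 148, 95.7 and 69.5 in stressed high-fat libraries 1 to 4. Both genes were highest in control high-fat library 2 and lowest in stressed library 4. These libraries share their sort and differ in cell makeup. The macrophage sum was 1586 CPM in that control library and 8884 CPM in that stressed one, and the part of cell makeup in these likenesses was not tested.

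**Figure D5:**
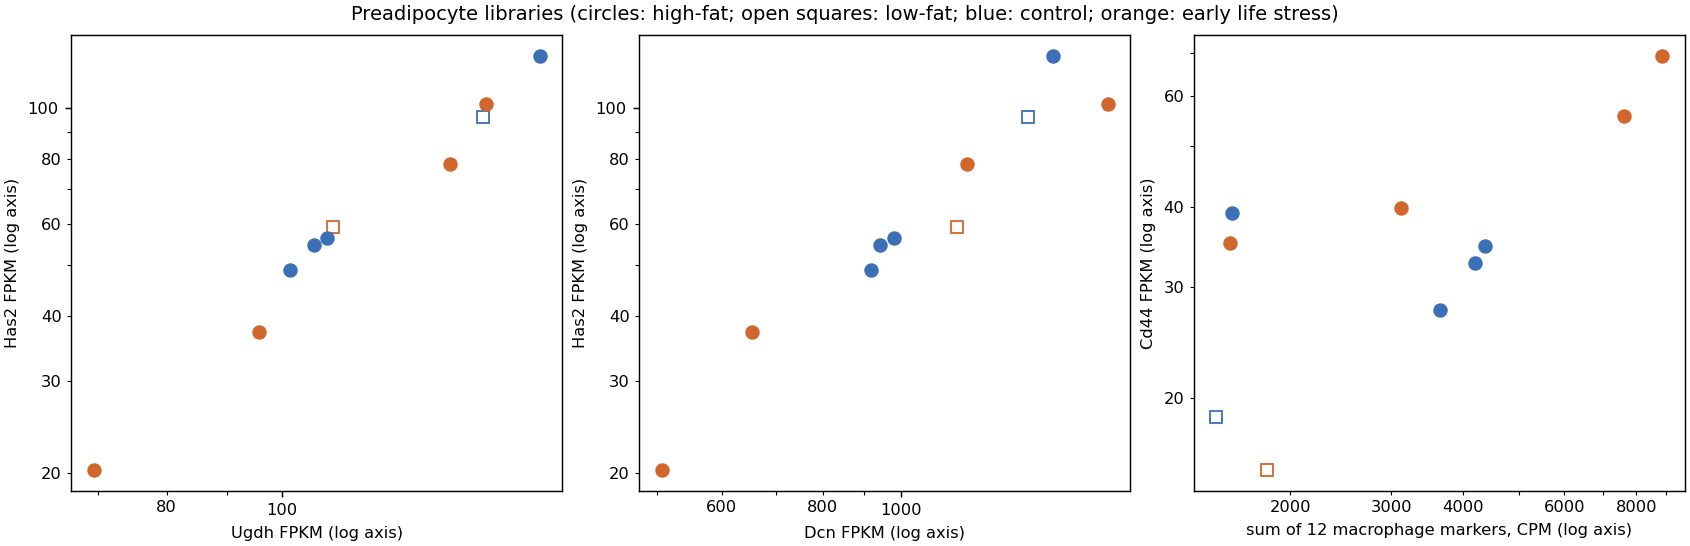
Preadipocyte libraries, 1 symbol each, on log axes (circles, high-fat; open squares, low-fat; blue, control; orange, early life stress). Has2 rises with Ugdh and with Dcn across the libraries (r = 0.994 and 0.969 over 9 libraries in log2 CPM), and the right panel plots Cd44 against the sum of 12 macrophage markers, with the low-fat control library at 18.7 FPKM and 1487 CPM and the low-fat stressed library at 15.4 FPKM and 1824 CPM.

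The genes most like each of the other members over the same 9 libraries are given by Pearson r. Dcn ran with Ginm1 (0.991), Mprip (0.987) and Plcd1 (0.985), and Lum with Txndc16 (0.973), Rab40b (0.972) and Robo1 (0.968). Vcan was nearest to Nav3 (0.985), B3galt1 (0.978) and Serpinh1 (0.970), the last a collagen chaperone gene. Cd44 was nearest to Ttc39b (0.982), Rnf149 (0.981) and Cdt1 (0.978), and Hyal2 to Akt1 (0.963), Minos1 (0.947) and Ndufa13 (0.946). Prg4 ran with Lrrfip1 (0.973), Phc2 (0.971) and Tmem176b (0.961), Bgn with Clcn5 (0.930), Serf1 (0.929) and Mdga1 (0.915), and Has1 with Rps6ka3 (0.9004), Panx1 (0.889) and Emc4 (0.880). Hyal1 was nearest to Dync1i2 (0.985), Nucks1 (0.972) and Nat6 (0.962), the last of which overlaps it in the genome, so their counts are not independent. With so many genes and 9 libraries, high values arise among many pairs, and these are descriptions of the libraries.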

How the data were processed

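Bulk RNA sequencing libraries (16) were read from a table of gene counts and a table of FPKM. Per the submitters' processing notes, the authors used STAR 2.6.1d, DESeq2 1.20.0 and edgeR 3.24.3 on mm10 (GRCm38), and which tool gave which deposited count is not given in the sources used here. The deposited counts are whole numbers per gene, not normalized. The FPKM deposited by the authors were checked against the counts, and differ from a plain scaling by length and total only by 1 factor for each library. That factor ran from 0.860 to 1.26, and overlap of groups was read on the FPKM as deposited.

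The counts were tested with edgeR 4.0.16 (R 4.3.3; TMM, filterByExpr, robust quasi-likelihood, Benjamini-Hochberg over all genes tested, threshold 0.05). Standard errors and 95% intervals were derived from the F statistic. The near-identical pair was found by comparing counts within groups and summed. The fits were tested on simulated data. The low-fat log2 ratio used a prior count of 2. Alternatives were median-ratio factors, no filter, DESeq2 1.42.0, limma 3.58.1 on log2(FPKM + 1) or log2(FPKM + 0.1), a replicate block, the pair kept separate, and each replicate left out. Some others, named in the closing section, were chosen after seeing the data: both near-identical libraries, the stressed preadipocyte libraries with the most macrophage signal or the control mature adipocyte libraries with few rare transcripts left out, the replicate block for diet, and the ratios with their settings.

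All 10 members are named in every comparison. From each of the 5 lists, up to 4 genes with the lowest p among those called are named, at least 1 in each direction. The genes most like a member are the 3 with the highest Pearson r of log2 CPM among genes of at least 5 CPM, where the highest r is at least 0.9. The members and lists were chosen with earlier results of these data known. Lists of 9 cell types were summed in CPM. Those used as a check of the fractions or beside a result are given. The sums of the others ran, in high-fat preadipocytes and mature adipocytes, from 4009 to 8003 and 898 to 1531 CPM for progenitor, 140 to 1430 and 43.3 to 172 for mesothelial, 189 to 799 and 442 to 2241 for endothelial, 95.3 to 482 and 561 to 1434 for mural, 114 to 612 and 463 to 1393 for B cell, 6.56 to 39.3 and 2.75 to 6.55 for T and NK cell and 5.55 to 41.6 and 10.1 to 24.9 CPM for neutrophil markers. Muc16 was at 0 in control mature adipocyte library 3. The B cell marker Ms4a1 was at 0 there too, the neutrophil marker Ly6g was at 0 in 12 of 16 libraries, and 5 libraries had from 1 to 5 of 8 T and NK cell markers at 0.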

Additional observations from a re-analysis of the deposited data

How the results depend on the processing

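Between cell fractions, no member changed direction in any of 27 alternatives, and Has1, Has2, Dcn, Lum and Bgn passed the threshold in all of them. Vcan passed wherever it was given an adjusted p, and DESeq2 gave none for it (log2 fold change -4.38). Cd44 passed in 15 of 27, Hyal2 in 26 of 27 and Prg4 in 5 of 27. Genes called fell from 10740 to 5998 in the control libraries alone, where fewer samples were fitted.

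In the stress and diet comparisons small differences changed sign, and the cause was not tested. For stress in preadipocytes, leaving out both near-identical libraries gave -0.0050 for Has1, -0.10 for Vcan, -0.040 for Bgn and 0.63 for Prg4. Leaving out stressed libraries 3 and 4 gave -0.18 for Has1, 0.17 for Has2, -0.14 for Hyal1, 0.33 for Dcn and 0.28 for Lum. With the pair kept separate Lum was 0.0096. Leaving out 1 replicate at a time gave -0.76 to 0.13 for Has2, -0.53 to 0.10 for Dcn, -0.39 to 0.23 for Lum, -0.40 to 0.10 for Prg4, -0.17 to 0.39 for Has1 and -0.31 to 0.080 for the log2 ratio of Hyal2 over Hyal1. In mature adipocytes it gave -1.16 to 0.17 for Hyal1, -0.70 to 0.68 for Cd44, -0.27 to 0.41 for Lum over Dcn, -0.24 to 0.12 for Bgn over Dcn and -0.48 to 0.067 for Has1 over Has2. For the difference in stress between fractions it gave -0.021 to 0.53 for Hyal2, -0.95 to 0.072 for Has2 and -1.22 to 0.15 for Cd44, and limma gave 0.19 for Has2 with and without a filter. By diet, Has1 was -0.0084 with the pair separate and -0.12 without stressed libraries 3 and 4, which also gave 0.059 for Has2 and -0.14 for Hyal1. Vcan was 0.043 without both near-identical libraries, and Lum was -0.00041 in limma on log2(FPKM + 1), with and without a filter, and -0.00052 with 0.1 added. Leaving out 1 replicate gave -0.28 to 0.12 for Vcan, -0.54 to 0.75 for Has1 and -0.053 to 0.15 for Lum.

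Counts of called genes in place of 0 were, for stress in preadipocytes, 5 in DESeq2, and for stress in mature adipocytes 19 in DESeq2, 51 without a filter and 0 to 9 with 1 replicate left out (9 without control library 2). The difference between fractions had 2 in DESeq2. Diet had 325 in DESeq2, of which 1 was a member, 15 in limma without a filter, 1 in limma on log2(FPKM + 0.1), 1 in edgeR without a filter and 0 to 1 with 1 replicate left out.

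Replicate numbers are shared between groups, but the labels do not say that they pair samples. The correlation of same-numbered libraries ran from -0.31 to 0.24 between fractions, -0.06 to 0.55 for stress in preadipocytes and -0.47 to -0.04 in mature adipocytes. Best matches with the own number were 3 of 6 control and 2 of 6 stressed libraries, 4 of 8 and 0 of 6. With the replicate number as a block, 9898 genes and 8 members were called between fractions, 1 gene for stress in preadipocytes, and 0 in mature adipocytes, where Cd44 was 0.012, and for the difference between fractions. For diet the block rests on number 1, the number that both diets hold; it called 2 genes and 0 members, with Has1 at -0.16, Hyal1 at -0.21 and Lum at -0.078. Counts of Has2 and Vcan were low in mature adipocytes, where a library held as few as 23 and 64. These minima were in stressed library 1 and control library 1, respectively. Those libraries had the highest totals of the fraction, 21952511 and 21995111 counts.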
